A study of Mus musculus with 34 samples.

Results

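Saa3, Lcn2 and Orm1 are acute phase genes, which many tissues turn on in inflammation. They were followed here through the epididymal fat of mice on a normal or a high fat diet. They are 3 of the 18617 named genes on the array, and were taken as every probe that the platform annotation maps to them: 1 probe for Saa3, 1 for Lcn2 and 2 for Orm1, of 25344 probes in all. Expression was measured on 34 two-colour arrays, each of which compared RNA of one diet group, labelled with Cy3, with RNA of another, labelled with Cy5. HF0 mice, born to STD mice, ate a high fat diet. HF1 were born to HF0 and ate the same diet, HF3 were born to an HF2 generation that is not analysed here, and HF4 were born to HF3, all on the high fat diet. HF1-REV, HF3-REV and HF4-REV shared the parentage of HF1, HF3 and HF4 but were given the normal diet, and STD mice had the normal diet throughout. The labels give no strain, age or treatment time, and not how many animals stand behind an extract.

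The acute phase response is the change in blood and tissue proteins that follows infection or injury. The cytokines IL-6, IL-1 and TNF set it off, acting through the transcription factors STAT3, C/EBP and NF-kB. Saa3 encodes a serum amyloid A protein that fat cells and macrophages make in the mouse. Lcn2 encodes lipocalin 2, which binds bacterial siderophores and so withholds iron, and is made by neutrophils, epithelia and fat. Orm1 encodes orosomucoid 1, also called alpha-1-acid glycoprotein, a lipocalin made by the liver and by fat cells.

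By the RefSeq annotation of GRCm38.p6, Lcn2 lies on chromosome 2 from 32384637 to 32387739, Orm1 on chromosome 4 from 63344556 to 63348163, and Saa3 on chromosome 7 from 46711998 to 46719615. Orm2 and Orm3, close paralogs of Orm1, have no probe named by the annotation, and whether the Orm1 probes also bind their RNA cannot be told. RefSeq promoter windows of 300 bases matched 2 of the 3 genes. They are shown because C/EBP factors take part in the induction of both genes. The Saa3 window is chr7:46715627-46715926 and the Lcn2 window is chr2:32387690-32387989, both on the minus strand and written 5′ to 3′. Capitals mark the C/EBP letters TTNNGNAA, searched on both strands.
Saa3: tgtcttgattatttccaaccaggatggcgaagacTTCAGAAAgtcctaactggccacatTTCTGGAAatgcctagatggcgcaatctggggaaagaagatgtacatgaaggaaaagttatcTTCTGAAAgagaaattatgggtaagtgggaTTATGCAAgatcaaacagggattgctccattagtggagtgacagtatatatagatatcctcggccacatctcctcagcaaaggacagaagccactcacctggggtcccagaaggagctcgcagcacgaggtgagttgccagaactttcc
Lcn2: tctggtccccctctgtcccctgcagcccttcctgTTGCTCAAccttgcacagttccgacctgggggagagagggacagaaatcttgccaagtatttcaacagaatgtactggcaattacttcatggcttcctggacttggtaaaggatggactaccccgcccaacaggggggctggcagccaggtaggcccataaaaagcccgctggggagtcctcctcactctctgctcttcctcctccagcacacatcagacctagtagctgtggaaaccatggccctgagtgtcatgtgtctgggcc
The Saa3 window held 4 matches, at -216 to -209, -191 to -184, -129 to -122 and -99 to -92 from the window's start site, none of them overlapping. That start site lies inside the annotated span of Saa3 and not at its outer end. The Lcn2 window held 1, at -216 to -209. Of 32851 promoter windows of this length, 40.7% held the C/EBP letters, so a match is common. The NF-kB consensus (in 8.46% of windows), the STAT3 letters TTCNNNGAA (8.3%) and the TATA box letters TATAAA (13.6%) had no match in either window. The matches describe letters in these windows, and no data here bear on binding.

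Values are log2 ratios in which the group named first stands over the other, with Cy5 taken as the numerator throughout. The deposited table and the labels do not state the numerator dye. If Cy5 was it, a positive value stands for more RNA in the group named first. If Cy3 was it, every sign turns, so relative directions alone are read. Log base 2 was taken and a natural log could not be told from it, so no value was turned into a fold. The table holds ratios and no intensities, so neither the level of a gene nor the brightness of a spot is known. Whether fat cell markers are high in an extract therefore cannot be read either. Precision is limited by the number of extracts, since dye swaps repeat the same ones as far as the labels say. In whole fat, fewer cells of a type and less RNA per cell cannot be told apart.

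Experiment 1 (12 arrays) paired STD, HF0, HF3 and HF4 in every way, and experiment 2 (22 arrays) paired HF0, HF1, HF3 and HF4 in every way. Experiment 2 added 4 arrays of HF0 with STD, and 2 arrays each of HF1, HF3 and HF4 with their reversal groups. Both dye orientations were run for every pairing. The pairings of one experiment can be checked against each other, since the path from HF4 to HF0 by way of HF3 should give the direct value. In experiment 2, 10.7% of the sum of squares over all features could not be fitted by 1 value per group, and in experiment 1 34.5%. For the 3 genes the gap between experiments was wider: 87.8% in experiment 1 and 17.7% in experiment 2 for Saa3, 56.9% and 4.32% for Lcn2, 36.0% and 1.00% for Orm1. The direct and indirect values differed in sign for Saa3 in 3 of 4 triangles of experiment 1 and 1 of 4 of experiment 2. For Lcn2 they did so in 3 and 0 of 4, and for Orm1 in 2 and 0 of 4. The 6 dye-swap means were also put under each of the 720 orders of the 6 pairing names, with the direction of each pairing kept. In experiment 2 no order left less unfitted than the labels did. In experiment 1, 284 orders did, and the lowest left 17.9% against 34.5% as labelled. The lowest order was picked from the same values, so it could not lie above the labelled one. Some pairing titles of experiment 1 may be exchanged, or its arrays may agree poorly. Neither was tested, the 2 cannot be told apart here, and the labels were kept. Every experiment 1 value, and every limma value that combines the experiments, rests on those labels. For the 3 genes, experiment 2 alone is also given, as array values or as group values. Limma values of other genes combine both experiments and mostly are not given for experiment 2 alone.

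HF0 against STD asks what a first generation on the high fat diet changed. Lcn2 had the most distant values of the 3 genes. On the 4 arrays of experiment 2 it read -5.02, -4.09, -3.35 and -3.34, and on the arrays of experiment 1 labelled HF0 and STD it read -1.12 and -0.82. All 6 arrays were negative, and those of experiment 2 lay apart from those of experiment 1. Orm1 read -1.99, -1.94, -1.78 and -1.14 in experiment 2, and -0.21 and -0.16 in experiment 1. It too was negative on all 6 arrays, with the experiments apart. Saa3 read 0.84, 0.81, 0.28 and 0.26 in experiment 2 but -0.60 and -0.34 in experiment 1, so the sign of its direct arrays differed between experiments.

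**Figure D1:**
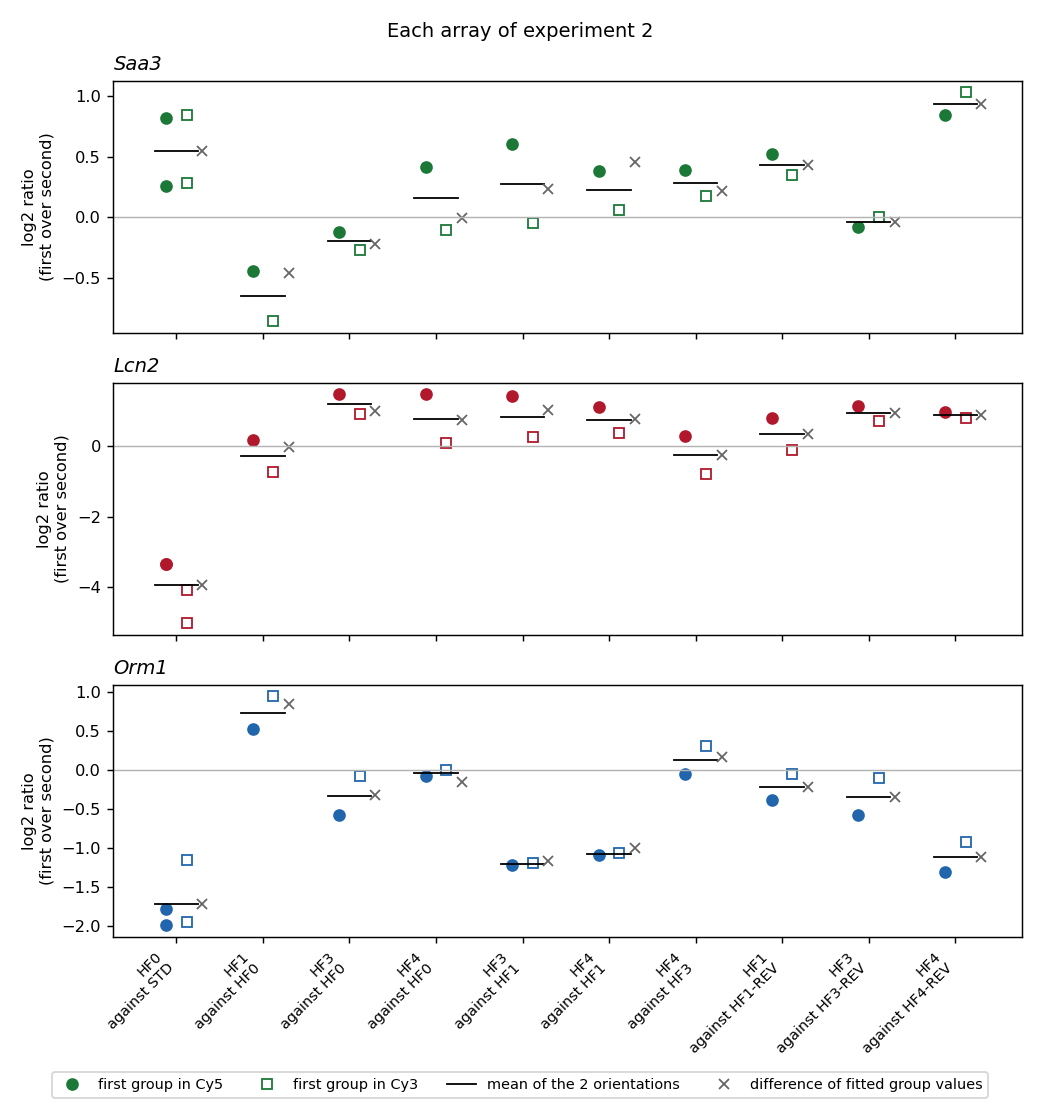
Log2 ratio (vertical axis) of Saa3, Lcn2 and Orm1 on each of the 22 arrays of experiment 2, by pairing. Filled circles have the first-named group in Cy5, open squares in Cy3, bars are the mean of the 2 orientations and crosses the difference of the fitted group values; Lcn2 lies between -5.02 and -3.34 in HF0 against STD.

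With both experiments in 1 limma fit over 22879 features, no gene passed an adjusted p of 0.05 in this comparison. Lcn2 stood at -2.32 ± 0.76 (SE, n = 2 experiments each, limma adjusted p = 0.674). Orm1 stood at -1.03 ± 0.38 and Saa3 at 0.37 ± 0.13, with the same limma adjusted p of 0.674. Of all features 0% were called here, while 1685 had an unadjusted limma p under 0.05, and the 3 genes were among them with 0.0215, 0.0348 and 0.0263. In experiment 2 alone the values were -3.95 for Lcn2, -1.71 for Orm1 and 0.55 for Saa3, and in experiment 1 alone -0.69, -0.35 and 0.19, none with a test. These come from fitted group values, and for Saa3 in experiment 1 the direct arrays had the other sign, with a mean of -0.47. The arrays of the 2 dates that the labels give for this pairing in experiment 2 gave -3.71 and -4.18 for Lcn2, -1.56 and -1.86 for Orm1, and 0.55 in both for Saa3.

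The STD extract of experiment 2 stood apart for Lcn2, Orm1 and the epididymis markers, and other marker lists moved there as well. Over all features its SD from HF0 was 0.57, as was that of HF4 in the same experiment. Against HF0 of the same experiment, STD Lcn2 ranked 35 of 22879 features, STD Orm1 428 and STD Saa3 21397, counted from the most positive. Markers of the epididymis epithelium, the tissue next to this fat pad, moved in the same sense as Lcn2. Their median (21 of 29 markers measured) was 4.35 above HF0 in STD of experiment 2, with a range of 0.77 to 6.60 and all 21 positive. In STD of experiment 1 it was 1.26, with 20 of 21 positive. In the same STD extract of experiment 2 the male germ cell median was 2.15 (20 of 20 positive), the macrophage median -1.15 (0 of 13 positive) and the endothelium median 0.92 (7 of 8 positive). The adipocyte median there was 0.64, with all 8 positive. For male germ cells the median lay further from HF0 in HF3 (2.77) and HF4 (3.65) of experiment 2 than in this STD extract. Lcn5, an epididymal lipocalin, read -3.64 in HF0 against STD. The part of these cells in the Lcn2, Orm1 and Saa3 values was not tested.

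HF3 against STD and HF4 against STD gave the same order of the 3 genes as HF0 against STD. All of these comparisons share the STD values, so the order is not a separate result. Lcn2 was -1.53 and -1.76, Orm1 -1.27 and -1.09, and Saa3 0.23 and 0.44, and none passed in limma (adjusted p of 0.626 to 0.631 for HF3 and 0.207 to 0.353 for HF4). Across all features, 0% were called for HF3 and 0.437% for HF4. These groups met STD directly only in experiment 1. There Lcn2 read -0.28 and 0.02 for HF3, and -0.30 and 0.36 for HF4, on both sides of 0. Orm1 read -0.64 and -0.53 for HF3, and -0.48 and -0.32 for HF4, all negative. Saa3 read 0.68 and 0.91 for HF3, and 0.10 and 0.56 for HF4, all positive. Without the STD extract of experiment 2, the fitted Lcn2 values against STD were -0.81 for HF0, -0.02 for HF3 and -0.25 for HF4. The Orm1 values were then -0.29, -0.53 and -0.35, so Orm1 was more negative than Lcn2 for HF3 and HF4.

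**Figure D2:**
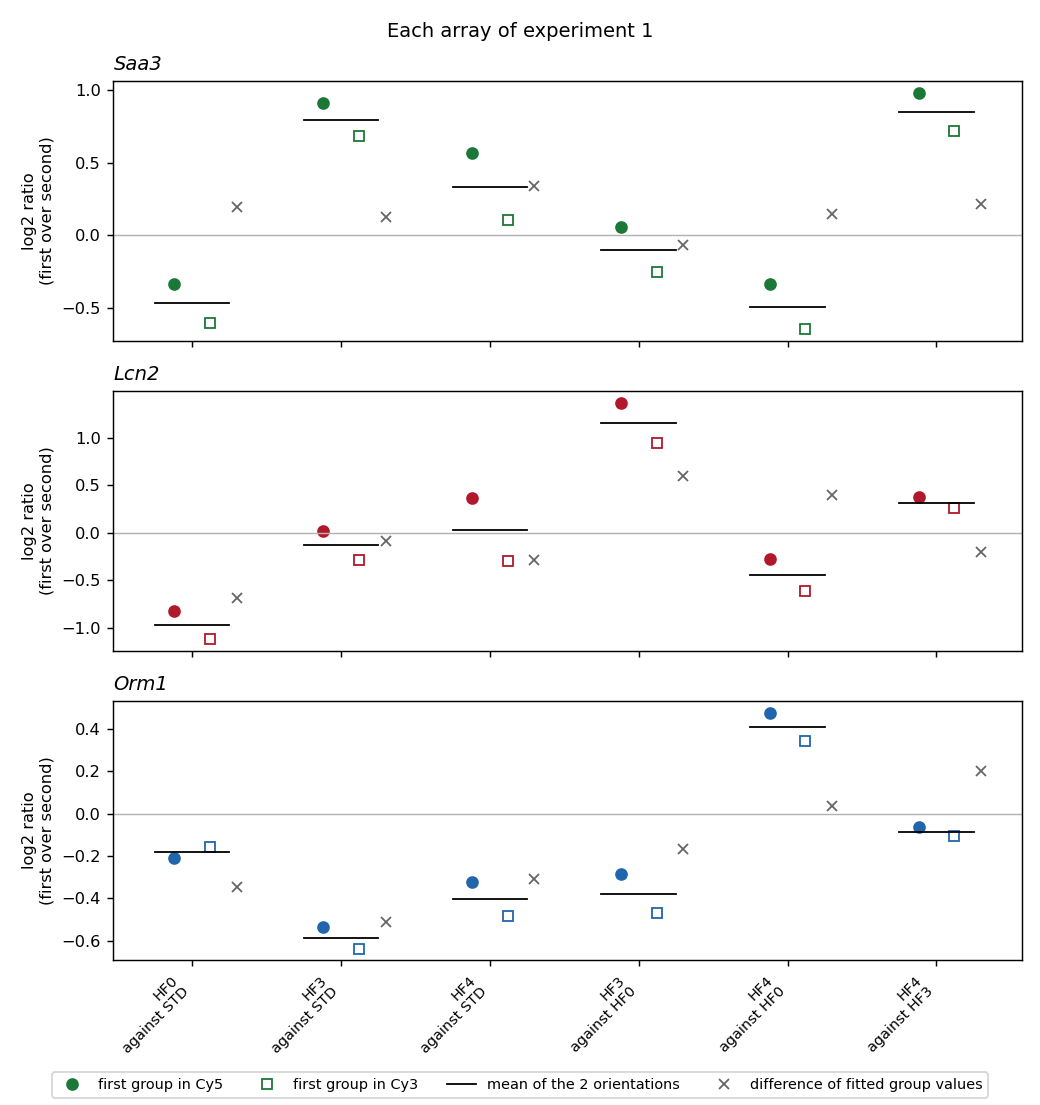
Log2 ratio (vertical axis) of Saa3, Lcn2 and Orm1 on each of the 12 arrays of experiment 1, by labelled pairing. Circles, squares, bars and crosses stand for first group in Cy5, first group in Cy3, their mean and the fitted difference; for Lcn2 in HF4 against HF0 the arrays read -0.61 and -0.28 while the fitted difference is 0.40.

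Comparisons between high fat generations ask whether the genes kept changing with each generation. Lcn2 in HF3 against HF0 was positive on all 4 arrays, at 0.90 and 1.45 in experiment 2 and 0.94 and 1.37 in experiment 1. The limma value was 0.79 ± 0.76 (n = 2 experiments each, adjusted p = 0.864). The STD extract of experiment 2 was paired only with HF0, so leaving it out cannot move this value. The SE then fell from 0.76 to 0.14 and the limma adjusted p to 0.0371, among 584 features called in place of 0. That extract held the most distant Lcn2 value, so this pass is no separate support. In this comparison 20 of 21 epididymis markers were positive (median 0.60), as were 20 of 20 male germ cell markers (median 2.20). Their part in the Lcn2 values was not tested. Lcn2 in HF4 against HF0 read 0.09 and 1.45 in experiment 2, and -0.61 and -0.28 in experiment 1, so the experiments took opposite sides of 0. Its limma value was 0.56 ± 0.76 (adjusted p = 0.928), while 4.21% of all features were called in this comparison.

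The Orm1 arrays set HF1 apart from the other high fat groups. In experiment 2, the only one with HF1, it read 0.53 and 0.95 in HF1 against HF0, -1.21 and -1.18 in HF3 against HF1, and -1.08 and -1.05 in HF4 against HF1. All 6 arrays placed HF1 on the same side of the other high fat groups. The limma values were 0.72 ± 0.49, -0.96 ± 0.49 and -0.77 ± 0.49 (adjusted p of 0.785, 0.662 and 0.508), with 0%, 0% and 2.81% of all features called. Without the STD extract of experiment 2, limma gave -1.15 in HF3 against HF1 (adjusted p = 0.0203) and -0.96 in HF4 against HF1 (adjusted p = 0.0139), with 450 and 1372 features called. In HF1 against HF0 it gave 0.90 (adjusted p = 0.334), with 0 features called. Leaving that extract out lowered the SE of these Orm1 values from 0.49 to 0.15, and it held the most distant Orm1 value. HF1 has n = 1 and was assumed to vary like the other groups.

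No Saa3 difference between high fat generations passed. In experiment 2 it read -0.86 and -0.44 in HF1 against HF0, -0.27 and -0.12 in HF3 against HF0, and -0.11 and 0.42 in HF4 against HF0. In experiment 1 it read -0.25 and 0.06 in HF3 against HF0, and -0.65 and -0.34 in HF4 against HF0. The limma values were -0.38 ± 0.16, -0.14 ± 0.13 and 0.07 ± 0.13 (adjusted p of 0.689, 0.854 and 0.954). HF4 against HF1 read 0.06 and 0.38, and HF3 against HF1 -0.05 and 0.61. The HF4 against HF3 arrays read 0.18 and 0.39 in experiment 2 and 0.72 and 0.98 in experiment 1. The fit gave 0.45 ± 0.16 (adjusted p = 0.253), 0.23 ± 0.16 (0.785) and 0.21 ± 0.13 (0.891) for these, with limma.

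In the remaining pairings of high fat generations, Lcn2 read -0.73 and 0.16 in HF1 against HF0, 0.24 and 1.39 in HF3 against HF1, and 0.35 and 1.10 in HF4 against HF1. It read -0.81 and 0.27 in HF4 against HF3 of experiment 2, and 0.26 and 0.38 in experiment 1. The limma values were -0.54, 1.32, 1.10 and -0.23 (adjusted p of 0.93, 0.794, 0.656 and 0.994). The 2 dye orientations differed more for Lcn2 than for the other genes. Their difference, halved, had a median of 0.45 in experiment 2, against 0.18 for Orm1 and 0.10 for Saa3. For Lcn2 the orientation with the first group in Cy5 read higher in every pairing of both experiments. A constant dye offset of this kind cancels in the mean of the 2 orientations. Orm1 read -0.57 and -0.08 in HF3 against HF0 of experiment 2 and -0.47 and -0.28 in experiment 1. In HF4 against HF0 it read -0.07 and 0.01 in experiment 2, against 0.35 and 0.48 in experiment 1. In HF4 against HF3 it read -0.05 and 0.32 in experiment 2, and -0.10 and -0.06 in experiment 1. The limma values were -0.24, -0.06 and 0.19 (adjusted p of 0.923, 0.991 and 0.983), and 0% of features were called in HF3 against HF0 and in HF4 against HF3.

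**Figure D3:**
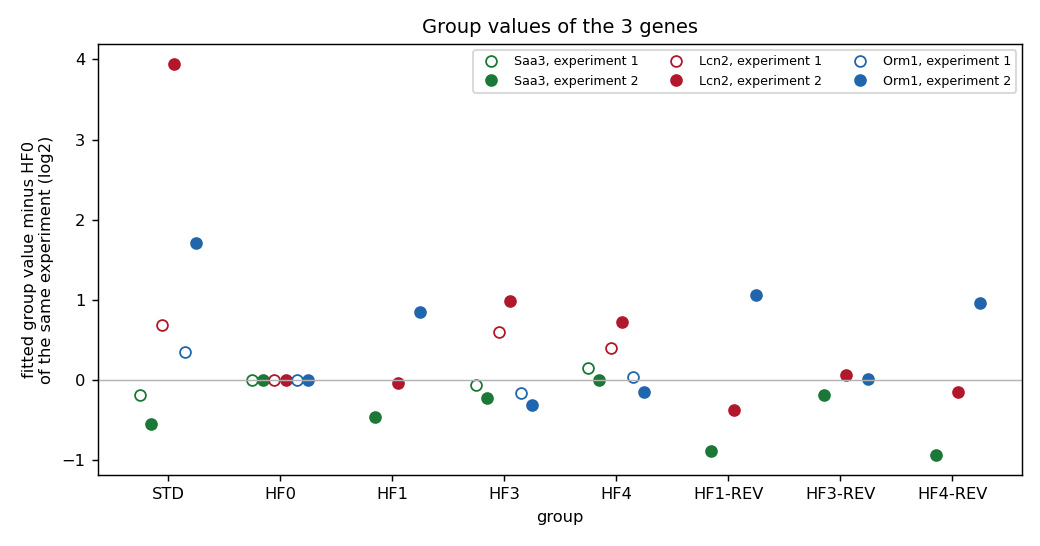
Fitted group values of Saa3, Lcn2 and Orm1 minus HF0 of the same experiment (log2, vertical axis), for each group in experiment 1 and experiment 2. STD of experiment 2 lies at 3.95 for Lcn2 and 1.71 for Orm1, and HF4-REV at -0.94 for Saa3.

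The reversal comparisons ask what a generation of normal diet changed in mice of high fat parentage. Saa3 in HF4 against HF4-REV was the only one of 36 tests of the 3 genes that passed. Its arrays read 0.84 and 1.03, both positive, and the limma value was 0.93 ± 0.16 (n = 2 for HF4 and 1 for HF4-REV, adjusted p = 0.0257). A group with 1 extract has no spread of its own, so this SE comes from the groups present in both experiments and HF4-REV was assumed to vary like them. The check below that leaves out 1 array never removes the HF4-REV extract, so it does not bear on variation between extracts. In this comparison 11.2% of all features were called, 7.35% in the positive direction, so a call is common here. If Cy5 was the numerator, Saa3 rose in HF4 relative to HF4-REV, and if Cy3 was, it fell. The call held with each of the 34 arrays left out in turn (adjusted p of 0.0104 to 0.0416) and without the STD extract of experiment 2 (0.96, adjusted p = 0.00857). It was lost with scale normalization between arrays (0.76, adjusted p = 0.0514) and with quantile normalization (0.66, adjusted p = 0.103).

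In HF3 against HF3-REV, Saa3 read -0.08 and -0.0004, with a limma value of -0.04 ± 0.16 (adjusted p = 0.917). In HF1 against HF1-REV it read 0.35 and 0.52, with a limma value of 0.43 ± 0.18 (n = 1 each, adjusted p = 1). Neither group of that pairing has a spread of its own, and HF3-REV, with n = 1, has none either. Over all probes the turned orientations of the HF1 and HF1-REV arrays correlated at -0.34, below every other pairing (-0.11 to 0.58). The difference between generations was tested itself. HF4 against HF4-REV minus HF3 against HF3-REV gave 0.97 ± 0.22 for Saa3 (limma adjusted p = 0.144), and no feature was called for it or for the other 2 such differences.

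Lcn2 read 0.79 and 0.95 in HF4 against HF4-REV, and 0.70 and 1.13 in HF3 against HF3-REV. All 4 arrays were positive, and the limma values were 1.20 ± 0.97 (adjusted p = 0.441) and 1.22 ± 0.97 (adjusted p = 0.582). In HF1 against HF1-REV it read -0.11 and 0.79 (limma 0.34 ± 1.07, adjusted p = 1). Orm1 read -1.30 and -0.92 in HF4 against HF4-REV, -0.58 and -0.09 in HF3 against HF3-REV, and -0.38 and -0.05 in HF1 against HF1-REV. All 6 were negative, with limma values of -0.89 ± 0.49, -0.13 ± 0.49 and -0.22 ± 0.54 (adjusted p of 0.27, 0.918 and 1). Called features were 0.0874% in HF3 against HF3-REV and 0% in HF1 against HF1-REV. Leaving out the STD extract of experiment 2 lowered the SE in HF4 against HF4-REV to 0.18 for Lcn2 and 0.15 for Orm1. Without the STD extract of experiment 2, Lcn2 (0.83, adjusted p = 0.0225) and Orm1 (-1.07, adjusted p = 0.00612) also passed in HF4 against HF4-REV, among 4884 features called.

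Set in order within experiment 2, each minus HF0, Lcn2 stood at -0.38 in HF1-REV, -0.15 in HF4-REV, -0.04 in HF1, 0.06 in HF3-REV, 0.72 in HF4, 0.98 in HF3 and 3.95 in STD. Between neighbours in this order, only the step to STD exceeded the limma SE of a Lcn2 difference, 0.76 to 1.07. Orm1 stood at -0.32 in HF3, -0.15 in HF4, 0.02 in HF3-REV, 0.85 in HF1, 0.96 in HF4-REV, 1.06 in HF1-REV and 1.71 in STD. HF1, HF4-REV and HF1-REV were neighbours that differed by less than the limma SE of 0.38 to 0.54, as did HF3, HF4 and HF3-REV. Saa3 stood at -0.94 in HF4-REV, -0.89 in HF1-REV, -0.55 in STD, -0.46 in HF1, -0.22 in HF3, -0.18 in HF3-REV and -0.01 in HF4. Its neighbours HF4-REV and HF1-REV, STD and HF1, and HF3 and HF3-REV differed by less than the SE of 0.13 to 0.18.

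The 3 genes did not share 1 pattern. Over the 12 group values, Orm1 and Saa3 correlated at -0.75 (Pearson's r), Lcn2 and Orm1 at 0.35, and Lcn2 and Saa3 at 0.13. Over the 11 values without STD of experiment 2 these were -0.84, -0.41 and 0.51. All such values are descriptions, since the points share arrays and, within an experiment, the mean of STD, HF0, HF3 and HF4 that they are taken relative to. The genes most like Lcn2 over 12 values were Epcam (0.99), Eppin (0.99), Tpd52l1 (0.98), Slc35f2 (0.98) and Hpdl (0.98). Over 11 values Eppin (0.97), Epcam (0.97) and Tpd52l1 (0.95) were still the first 3, followed by Adam28 (0.95) and Bex2 (0.95). Those most like Orm1 were Afap1l1 (0.98), Tspan13 (0.98), Mrpl43 (0.96), Gstz1 (0.96) and Ces1f (0.95) over 12, with B3gnt3 (0.93) in place of Ces1f over 11. Those most like Saa3 were Aldh1a2, Pabpc5, Dhx33, Vmn1r206 and Asap1 over 12 (0.93 each). Over 11 they were Pabpc5 (0.96), Phospho1 (0.95), Gjb1 (0.94), Ntn3 (0.94) and Tyrp1 (0.94).

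**Figure D4:**
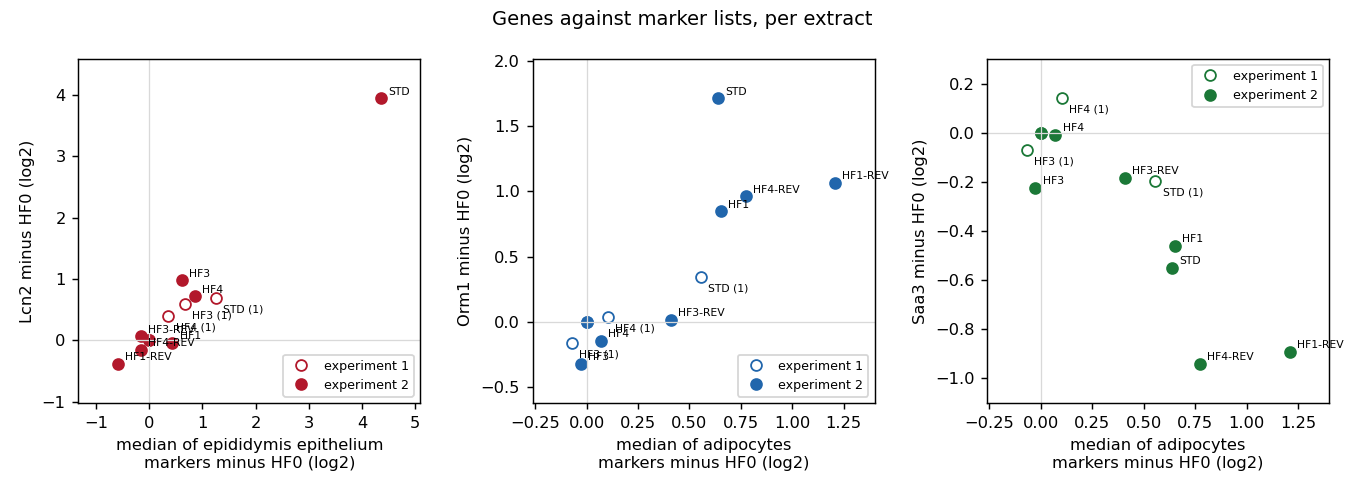
Group values minus HF0 (log2) of Lcn2 against the median of 21 epididymis epithelium markers, and of Orm1 and Saa3 against the median of 8 adipocyte markers, 1 point per group and experiment. Taken relative to the mean of STD, HF0, HF3 and HF4 of the experiment instead, Pearson's r over 12 values is 0.96 for Lcn2, 0.76 for Orm1 and -0.87 for Saa3, and the point of STD in experiment 2 lies far from the rest for Lcn2.

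Marker lists of other cell types moved with the genes in different ways. Lcn2 correlated with the epididymis median at 0.96 over 12 values and 0.90 over 11. It correlated with the macrophage median at -0.93 and -0.81, with the male germ cell median at 0.61 and 0.74, and with the neutrophil median at 0.14 and 0.22. Orm1 correlated with the median of the 8 adipocyte markers measured at 0.76 and 0.90, and Saa3 with it at -0.87 and -0.86. With the endothelium median, Orm1 correlated at 0.74 and 0.62, and Saa3 at -0.66 and -0.66. Against HF0 of experiment 2 the adipocyte median was 0.64 in STD, 0.65 in HF1, 1.21 in HF1-REV, 0.41 in HF3-REV and 0.77 in HF4-REV, but -0.03 in HF3 and 0.07 in HF4. In HF4 against HF4-REV, where Saa3 passed, 7 of 8 adipocyte markers were negative with a median of -0.67. So were 9 of 9 fibroblast and fat progenitor markers (-0.39), 10 of 13 macrophage markers (-0.58) and 5 of 8 endothelium markers (-0.455). Of the epididymis markers, 17 of 21 were positive (1.21). There all 20 male germ cell markers were positive, with a median of 3.64, and 18 of them passed. The part of these cells in the 3 genes' values was not tested.

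The wider acute phase pathway was read from 7 lists holding 104 measured genes beside the 3. In HF0 against STD none of the 104 passed, where 0% of all features did, and the median was 0.03 (0.01 over all features). In HF4 against HF0 none passed either, beside 4.21% of all features, and the median was -0.07 (-0.03 over all features). In the other comparisons except HF4 against HF4-REV none passed. The share of all features called in those was 2.81% for HF4 against HF1, 0.437% for HF4 against STD and 0.0874% for HF3 against HF3-REV. It was 0% for the rest, where no list gene could pass. Of the acute phase proteins, 29 of 38 were measured. Their median was 0.04 in HF0 against STD and 0.07 in HF4 against HF4-REV, with 17 and 15 of 29 positive. Saa1, Saa4 and the haemoglobin binder Hp read 0.09, 0.23 and 0.01 in HF0 against STD, and Saa2 read 0.41, none passing in limma (adjusted p of 0.65 to 0.992).

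The most positive and most negative gene of each list, in HF0 against STD and then in HF4 against HF0, show how wide the lists spread, and none of these values passed. Each value combines both experiments, which took opposite sides of 0 in HF0 against STD for Il6, Ctf1 and Cebpd. Among the acute phase proteins the extremes were the endotoxin receptor Cd14 at 0.50 and Fga at -0.66, then the fibrinogen chain Fgg at 1.38 and Steap4 at -0.45. Among the cytokines they were Il6 at 1.03 and Ctf1 at -0.20, then Il6 at 1.01 and Ifng at -0.46. Among the cytokine receptors they were Il1r1 at 0.46 and Ifngr2 at -0.25, then Il17ra at 0.28 and Tnfrsf1a at -0.32. Among the transducers and transcription factors they were Cebpd at 0.70 and Stat3 at -0.25, then Nfkb2 at 0.36 and Cebpb at -0.66. Among the inhibitors they were the decoy receptor Il1r2 at 0.57 and Socs1 at -0.27, then Il1rn at 0.27 and the phosphatase Ptpn6 at -0.65. Among receptors and partners of the 3 proteins they were Tlr2 at 0.77 and Cd36 at -0.72, then Scarb1 at 0.25 and Mmp9 at -0.53. Among the other lipocalins they were Apom at 0.41 and Lcn5 at -3.64, then Lcn5 at 1.77 and Apom at -0.36.

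In HF4 against HF4-REV, 6 of the 104 passed in the positive and 2 in the negative direction, which is 5.77% and 1.92% against 7.35% and 3.8% of all features. Among the proteins, Saa2, a serum amyloid A of the liver, read 0.62 ± 0.15 (limma adjusted p = 0.048) and the fibrinogen chain Fga 1.66 ± 0.36 (0.0403). Saa1 read 0.43 ± 0.14 and did not pass (0.0948). Among cytokines and receptors, Lif, of the IL-6 family, read 1.18 ± 0.19 (0.0221). The receptor chains Osmr and Il6ra read 0.97 ± 0.17 (0.0252) and 0.74 ± 0.17 (0.0438), and the TNF receptor Tnfrsf1a -1.31 ± 0.29 (0.0408). Il1rn, which blocks IL-1, read 0.91 ± 0.18 (0.0309). Mmp9, a protease that binds lipocalin 2, read -2.06 ± 0.30 (0.0183). All adjusted p-values here are limma's. Of all features, 2552 were called in this comparison, but 1094 with scale normalization and 29 with quantile normalization. The list genes were not followed under those settings.

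Lif in HF4 against HF4-REV was the only one of the 12 inducing cytokines measured that passed in any comparison. In that comparison 7.35% of all features passed in the positive direction. Il6 read 1.03 in HF0 against STD, 2.77 in HF3 against STD, 2.04 in HF4 against STD and 1.17 in HF4 against HF4-REV (limma adjusted p of 0.251 to 0.77). Il1b read 2.03 ± 0.37 in HF3 against HF3-REV (limma adjusted p = 0.102) and Tnf 0.77 ± 0.30 there (0.299). Of the transcription factors, Cebpd read 0.70, Cebpb -0.09 and Stat3 -0.25 in HF0 against STD, and 0.92, 0.15 and 0.14 in HF3 against STD, none passing. In experiments 1 and 2, STD minus HF0 was 0.23 and -2.29 for Il6, and 0.33 and -1.72 for Cebpd. For both genes the experiments thus took opposite sides of 0 in HF0 against STD. Socs3, which damps the IL-6 signal, read 0.02 in HF0 against STD and -0.25 in HF4 against HF0. Slc22a17, a lipocalin 2 receptor, read 0.17 in HF0 against STD and -0.75 ± 0.19 in HF4 against HF4-REV (limma adjusted p = 0.056).

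The 2 Orm1 probes can be set against each other as a check of that gene. Over the 34 arrays they correlated at 0.95 and had the same sign on 30. They differed by a median of 0.15 and at most by 0.65. In HF4 against HF3 of experiment 2 they read -0.07 and 0.64 on 1 probe and -0.03 and -0.01 on the other. Across the 16 pairings of both experiments, all arrays of a pairing had the same sign in 14 for Orm1, 13 for Saa3 and 11 for Lcn2. The Lcn2 count includes its dye difference, which had the same direction in every pairing.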

How the data were processed

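Epididymal fat RNA was hybridised on 34 two-colour arrays in 2 experiments, with Trizol extraction in experiment 1 and Qiagen reagents in experiment 2, per the labels. For each array the authors deposited a log ratio of every one of 25344 probes, none missing, from -6.31 to 7.99, with array medians of -0.062 to 0.046. No source used here states the background correction, the normalization, the numerator dye or the log base. The deposited values were read as log2 because log10 of 16-bit intensities could not exceed 4.82, and a natural log could not be told from base 2.

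Probes were named by the platform annotation: 21082 had 1 symbol, 30 several and 4232 none, and 20456 were updated to RefSeq symbols. Probes of a gene were averaged, giving 22879 features. Arrays were centred on their median, turned to the first-named group and averaged over dye swaps, which hold the same extracts as far as the labels say. Each experiment was then solved by least squares for 1 value per group, taken relative to the average of STD, HF0, HF3 and HF4. The 12 group values were tested with limma 3.58.1 in R 4.3.3, blocking on experiment. This left 3 residual degrees of freedom beside a prior of 3.16, and p-values were adjusted by Benjamini-Hochberg over every feature (threshold 0.05). No label ties extracts to separate animals, so the p-values reflect the spread of these extracts, which may be technical. The fit was tested on simulated data. Other steps used pandas 2.3.3, numpy 2.4.6 and matplotlib 3.10.9 under Python 3.11.15.

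The genes, lists and tests were chosen with earlier results of these data known. List genes are named where they passed, where they were the most positive or negative of their list in HF0 against STD or HF4 against HF0, or where they are key members of the pathway. The alternatives were leaving out the STD extract of experiment 2 or each array in turn, each experiment alone, direct arrays only, each date set, no centring, scale and quantile normalization, a robust prior and each Orm1 probe alone.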

Additional observations from a re-analysis of the deposited data

Results flagged for a closer look

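Saa3 in HF0 against STD was positive on all 4 arrays of experiment 2 and negative on both of experiment 1, with dye-swap means 1.02 apart. Lcn2 in HF4 against HF0 was positive on both arrays of experiment 2 and negative on both of experiment 1, with means 1.21 apart. Neither difference between experiments was tested.

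Saa3 took opposite signs in the reversal pairings. The arrays of HF4 against HF4-REV lay 0.97 above those of HF3 against HF3-REV on average, and in the limma test of that difference the adjusted p was 0.144. The arrays of HF1 against HF1-REV lay 0.47 above those of HF3 against HF3-REV, where limma gave -0.48 ± 0.24 for HF3 minus HF1 (adjusted p = 0.712). The HF3 against HF3-REV values, -0.08 and -0.0004, lie close to 0, so their sign says little.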

How the results depend on the processing

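Of 1488 alternative values for the 36 results of the 3 genes, 1222 that leave out 1 array and 222 others kept their side of the threshold and their direction or, with no test, moved by less than the SE of the limma value. Leaving out 1 array reversed 2: Lcn2 in HF1 against HF1-REV ranged from -0.11 to 0.79, and Orm1 in HF3 against HF3-REV from -0.37 to 0.11. Without the STD extract of experiment 2, Saa3 in HF4 against HF4-REV still passed (0.96), and 5 more results passed (Lcn2 0.79 in HF3 against HF0 and 0.83 in HF4 against HF4-REV, Orm1 -1.15 in HF3 against HF1, -0.96 in HF4 against HF1 and -1.07 in HF4 against HF4-REV). The features called were then 898 in HF4 against STD, 584 in HF3 against HF0, 252 in HF4 against HF3, 450 in HF3 against HF1, 1372 in HF4 against HF1, 8, 886 and 4884 in the reversal comparisons of HF1, HF3 and HF4. The 5 added passes came with a lower SE once the extract with the most distant Lcn2 and Orm1 values was dropped. They are therefore no separate support for those results. Saa3 in HF4 against HF4-REV no longer passed with scale (0.76) or quantile (0.66) normalization. Scale normalization called 310 features in HF4 against STD, 121 in HF3 against HF0, 227 in HF3 against HF3-REV and 1094 in HF4 against HF4-REV, and turned Orm1 in HF4 against HF0 to 0.026. Quantile normalization called 0 in HF4 against STD, 403 in HF4 against HF1, 235 in HF3 against HF3-REV and 29 in HF4 against HF4-REV.

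In experiment 1 alone, with no test, HF0 against STD was 0.19 for Saa3, -0.69 for Lcn2 and -0.35 for Orm1, HF3 against STD -0.091 for Lcn2 and -0.51 for Orm1, HF4 against STD -0.29 and -0.31, and Orm1 in HF4 against HF0 turned to 0.036. In experiment 2 alone the same were 0.55, -3.95 and -1.71, then -2.97 and -2.03, then -3.23 and -1.86, and Saa3 in HF4 against HF0 turned to -0.0058. Its date sets gave 0.55 and 0.55 for Saa3, -3.71 and -4.18 for Lcn2 and -1.56 and -1.86 for Orm1. Direct arrays alone gave, for Saa3, 0.040 in HF0 against STD, 0.80 in HF3 against STD, -0.65 in HF1 against HF0, -0.17 in HF4 against HF0 (reversed), 0.57 in HF4 against HF3 and 0.22 in HF4 against HF1. For Lcn2 they gave -0.13 in HF3 against STD, and 0.031 in HF4 against STD and 0.025 in HF4 against HF3 (both reversed). For Orm1 they gave -0.59 in HF3 against STD, -0.40 in HF4 against STD and 0.19 in HF4 against HF0 (reversed). Without 1 array the features called ranged from 30 to 227 in HF4 against STD, 0 to 1 in HF3 against HF0, 0 to 281 in HF1 against HF1-REV, 0 to 2300 in HF3 against HF3-REV and 1512 to 6458 in HF4 against HF4-REV. The cause of these shifts was not tested. No paired analysis was possible because the extracts carry no replicate numbers shared between groups, and experiment is already a block.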
